A study of Arabidopsis thaliana with 11 samples.

Results

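The 9 genes described here code for pathogenesis-related (PR) proteins and were taken by their AGI locus codes from a table of 22160 Arabidopsis thaliana genes. All 9 were measured and all 9 were among the 21580 genes that passed the filter on low counts and were tested. PR1 (AT2G14610), PR2 (AT3G57260) and PR5 (AT1G75040) form the salicylic acid (SA) type, and PR3 (AT3G12500), PR4 (AT3G04720) and PDF1.2A (AT5G44420) form the jasmonate and ethylene type. The remaining 3 are relatives, namely PRB1 (AT2G14580) and AT4G33720 of the PR1 family and the glucanase BG3 (AT3G57240). Messenger RNA was sequenced from whole seedlings, 10 days old, grown without treatment on sucrose medium. The groups were the wild type Col-0 (n = 3), the single mutants xpo4-2 (n = 2) and cpr5 (n = 3), and the double mutant xpo4-2 cpr5 (n = 3). XPO4 is the plant exportin-4, which carries cargo through the nuclear pore, and CPR5 is a nucleoporin of the pore membrane whose mutants carry active SA defence without infection. The labels name no allele for cpr5, do not say how many seedlings made up a sample, and do not say that replicates came from separate sowings, so the p-values reflect the spread among these libraries, which may be technical. Triplicates are named in the design, and 2 xpo4-2 libraries were analysed here.

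Plants secrete PR proteins when they are attacked, and the genes are read as markers of which hormone branch is active. In the SA branch, NPR1 and TGA transcription factors switch on PR1, PR2 and PR5. In the other branch, jasmonate and ethylene act through EIN3 and the ERF factors ERF1 and ORA59, which bind GCC boxes, and raise PR3, PR4 and PDF1.2A. The branches are known to hold each other back in leaves, and basic PR proteins such as PRB1 and PR3 are known for a high level in roots.

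Library totals ran from 16922732 to 23088104 counts, so 1 count equals 0.0433 to 0.0591 CPM, the count scaled to a fixed library total, before scaling, and these steps cover counting error only. XPO4 had a level of 21.5 ± 1.94 CPM in wild type and 23 ± 4.7 in cpr5, against 2.9 ± 2.68 and 1.46 ± 1.26 in the xpo4-2 and double mutant lines (SD, n as above). CPR5 had a level of 10.9 ± 2.65 CPM in wild type against 16.1 ± 1.5 in its own mutant, so its level gave no check of that label. Markers of the sampled organs moved most in the double mutant. The 14 green shoot markers, photosynthesis genes such as LHCB3 and RCA, summed to 30600 to 49700 CPM in wild-type libraries, 49800 to 62200 in xpo4-2 libraries, 39100 to 42200 in those of cpr5 and 8810 to 13100 in those of the double mutant, and 14 of 14 fell in the double mutant against cpr5, where 12.9% of all genes fell. The 14 root markers summed to 21.5 to 67.2 CPM in wild-type libraries, 67.1 to 111 in xpo4-2 libraries, 62.8 to 80.5 in those of cpr5 and 142 to 213 in those of the double mutant. Of these root markers, 2 rose in the double mutant against cpr5, where 8.82% of all genes rose, and 5 against wild type, where 18.1% did. In addition, 2 of the 14 were at 0 in the wild-type replicate 1, the library with the lowest root sum. In either single mutant against wild type, 0 of the 14 green shoot and 0 of the 14 root markers passed the threshold given below. Of all genes, 2.72% passed in xpo4-2 and 6.64% in cpr5, so counts of 0 lie near these shares. The root markers still had median log2 fold changes of 1.08 in xpo4-2 and 0.8 in cpr5, against 0.38 and 0.01 for the green shoot markers. In whole seedlings, fewer cells of a type and less RNA per cell cannot be told apart. The part of these organ markers in the results that follow was not tested.

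The upstream bases of the genes that the results turn on are shown first, taken from the TAIR10.1 assembly by locus tag. A search of the 250 bases before to 50 bases after each gene start, on both strands, looked for the W box of WRKY factors (TTGACC or TTGACT), the TGA factor core TGACG, the GCC box core GCCGCC and the G box CACGTG. The W box letters were in 3 of the 9 windows (PR2, BG3 and PR5), against 32.4% of 27443 windows of protein-coding genes. TGACG was in 3 (AT4G33720, BG3 and PR3), against 23.1%. The G box was in PR2 alone, against 7.68%, and the GCC box was in PDF1.2A alone, against 2.57%. For PR1, PRB1 and PR4, none of these letters are in the window, and bases farther upstream were not searched. The 250 bases before the start are printed for PR2, a glucanase gene called higher in cpr5 and again in the double mutant, for AT4G33720, which moved the opposite way in the double mutant, and for PDF1.2A, the defensin marker, with motif matches in capitals. PR2 lies upstream at chr3:21189968-21190217 (minus strand), AT4G33720 at chr4:16182493-16182742 (plus strand) and PDF1.2A at chr5:17907639-17907888 (minus strand).
PR2: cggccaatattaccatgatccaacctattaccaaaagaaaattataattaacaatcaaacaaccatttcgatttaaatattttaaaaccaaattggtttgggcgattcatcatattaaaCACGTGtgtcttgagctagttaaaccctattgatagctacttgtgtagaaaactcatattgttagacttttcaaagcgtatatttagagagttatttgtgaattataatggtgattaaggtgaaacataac
AT4G33720: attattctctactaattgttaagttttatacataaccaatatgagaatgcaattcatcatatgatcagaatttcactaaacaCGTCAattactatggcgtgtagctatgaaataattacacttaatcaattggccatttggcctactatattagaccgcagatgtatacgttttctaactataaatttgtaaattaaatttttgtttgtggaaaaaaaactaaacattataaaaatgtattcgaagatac
PDF1.2A: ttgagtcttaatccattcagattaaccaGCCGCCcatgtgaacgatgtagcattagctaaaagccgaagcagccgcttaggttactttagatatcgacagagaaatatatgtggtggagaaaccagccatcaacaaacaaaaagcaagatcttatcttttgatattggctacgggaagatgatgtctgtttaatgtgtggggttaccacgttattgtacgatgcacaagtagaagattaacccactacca
The capitals mark CACGTG in PR2, the reverse complement of TGACG in AT4G33720 and GCCGCC in PDF1.2A. The W box letters of PR2 lie after the gene start, from base 39, and so outside the printed stretch. Each match is a description of the letters and not a site of binding.

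PR2 and BG3 are neighbours on chromosome 3, on the same strand with 5252 bases between them and 1 protein-coding gene in the gap. Their coding sequences were 71.2% identical. Their upstream windows shared a stretch of 126 aligned columns with 98 identical bases (77.8%), which lies 126 to 4 bases before the start of PR2 and 148 to 30 bases before that of BG3. The stretch is shown because these genes were also the pair called higher together in the double mutant against cpr5, with capitals at bases that differ or face a gap. The PR2 stretch is chr3:21189971-21190093 and the BG3 stretch is chr3:21183174-21183292, both minus strand.
PR2: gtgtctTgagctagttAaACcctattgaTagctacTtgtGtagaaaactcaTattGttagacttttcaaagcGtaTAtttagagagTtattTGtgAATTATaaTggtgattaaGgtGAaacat
BG3: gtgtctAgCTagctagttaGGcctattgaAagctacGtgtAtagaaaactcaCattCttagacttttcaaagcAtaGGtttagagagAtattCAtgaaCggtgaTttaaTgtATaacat
The best local alignment of the PR1 and PRB1 windows held 14 columns, and their coding sequences were 83.5% identical. These lie 15412 bases apart on chromosome 2 with 0 protein-coding genes between them. The best local alignment of the PR1 and AT4G33720 windows held 55 columns with 34 identical bases (61.8%), and their coding sequences were 66.1% identical. Whether shared upstream bases go with shared levels was not tested.

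PR1, the standard marker of SA defence, reached the highest level of the set. It stood at 3.68, 31.0 and 42.6 CPM in wild-type libraries, 7.34 and 27.6 in xpo4-2 libraries, 407, 506 and 787 in those of cpr5, and 1630, 1660 and 2220 in those of the double mutant. Every cpr5 library lay above every wild-type and xpo4-2 library, and every double mutant library above every cpr5 library, while wild type and xpo4-2 overlapped. PR2, which codes for a beta-1,3-glucanase that cuts fungal wall glucan, stood at 3.86, 9.08 and 18.4 CPM in wild-type libraries, 11 and 27.2 in xpo4-2 libraries, 42.8, 76.8 and 123 in those of cpr5, and 342, 407 and 458 in those of the double mutant. As for PR1, the double mutant libraries lay above those of cpr5 and these above all others, while wild type and xpo4-2 overlapped, here with the lower mean in wild type. PR5, a thaumatin-like protein, stood at 4.15, 7.60 and 14.2 CPM in wild-type libraries, 8.73 and 12.3 in xpo4-2 libraries, 25.2, 45.4 and 45.9 in those of cpr5, and 50.0, 86.5 and 88.8 in those of the double mutant. Its cpr5 and double mutant groups did not overlap but came within a few CPM of each other.

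The relatives of these genes did not all follow them. BG3, the neighbouring glucanase, stood at 0.661, 1.33 and 5.21 CPM in wild-type libraries, 0.667 and 1.2 in xpo4-2 libraries, 12.6, 15.6 and 30.5 in those of cpr5, and 122, 131 and 145 in those of the double mutant. Its groups were apart except wild type and xpo4-2. PRB1, the basic relative of PR1, was low throughout, at 1.32, 1.62 and 5.43 CPM in wild-type libraries, 1.29 and 3.0 in xpo4-2 libraries, 5.12, 5.85 and 9.12 in those of cpr5, and 8.72, 10.3 and 10.9 in those of the double mutant. Each pair of neighbouring groups overlapped, and wild-type replicate 1, which held the lowest PR1, held the highest wild-type PRB1. AT4G33720, a PR1-family gene, had an order of its own, at 2.23, 3.19 and 3.58 CPM in wild-type libraries, 21.4 and 44.1 in xpo4-2 libraries, 128, 130 and 142 in those of cpr5, and 6.49, 8.01 and 11.1 in those of the double mutant. None of its 4 groups overlapped, and the double mutant lay between wild type and xpo4-2 rather than above cpr5.

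The jasmonate and ethylene type held genes of very different level. PR3, a basic chitinase, stood at 13.4, 43.2 and 69.9 CPM in wild-type libraries, 16.6 and 34.8 in xpo4-2 libraries, 59.3, 60.0 and 60.1 in those of cpr5, and 63.6, 77.9 and 92.8 in those of the double mutant. The wild-type spread covered the whole cpr5 group. The locus AT3G12502 overlaps PR3 on the other strand, and no strand setting of the counting is given in the sources used here, so reads of the pair cannot be told apart. PR4, a hevein-like chitin-binding protein, stood at 57.5, 130 and 263 CPM in wild-type libraries, 113 and 129 in xpo4-2 libraries, 242, 275 and 311 in those of cpr5, and 292, 383 and 427 in those of the double mutant. All its neighbouring groups overlapped. PDF1.2A, a plant defensin, was low throughout, at 0.361, 0.526 and 0.723 CPM in wild-type libraries, 1.22 and 3.33 in xpo4-2 libraries, 1.55, 4.30 and 7.31 in those of cpr5, and 3.53, 3.82 and 8.06 in those of the double mutant. Wild type lay below all 3 mutants, which overlapped, and rested on 6, 10 and 12 counts.

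**Figure D1:**
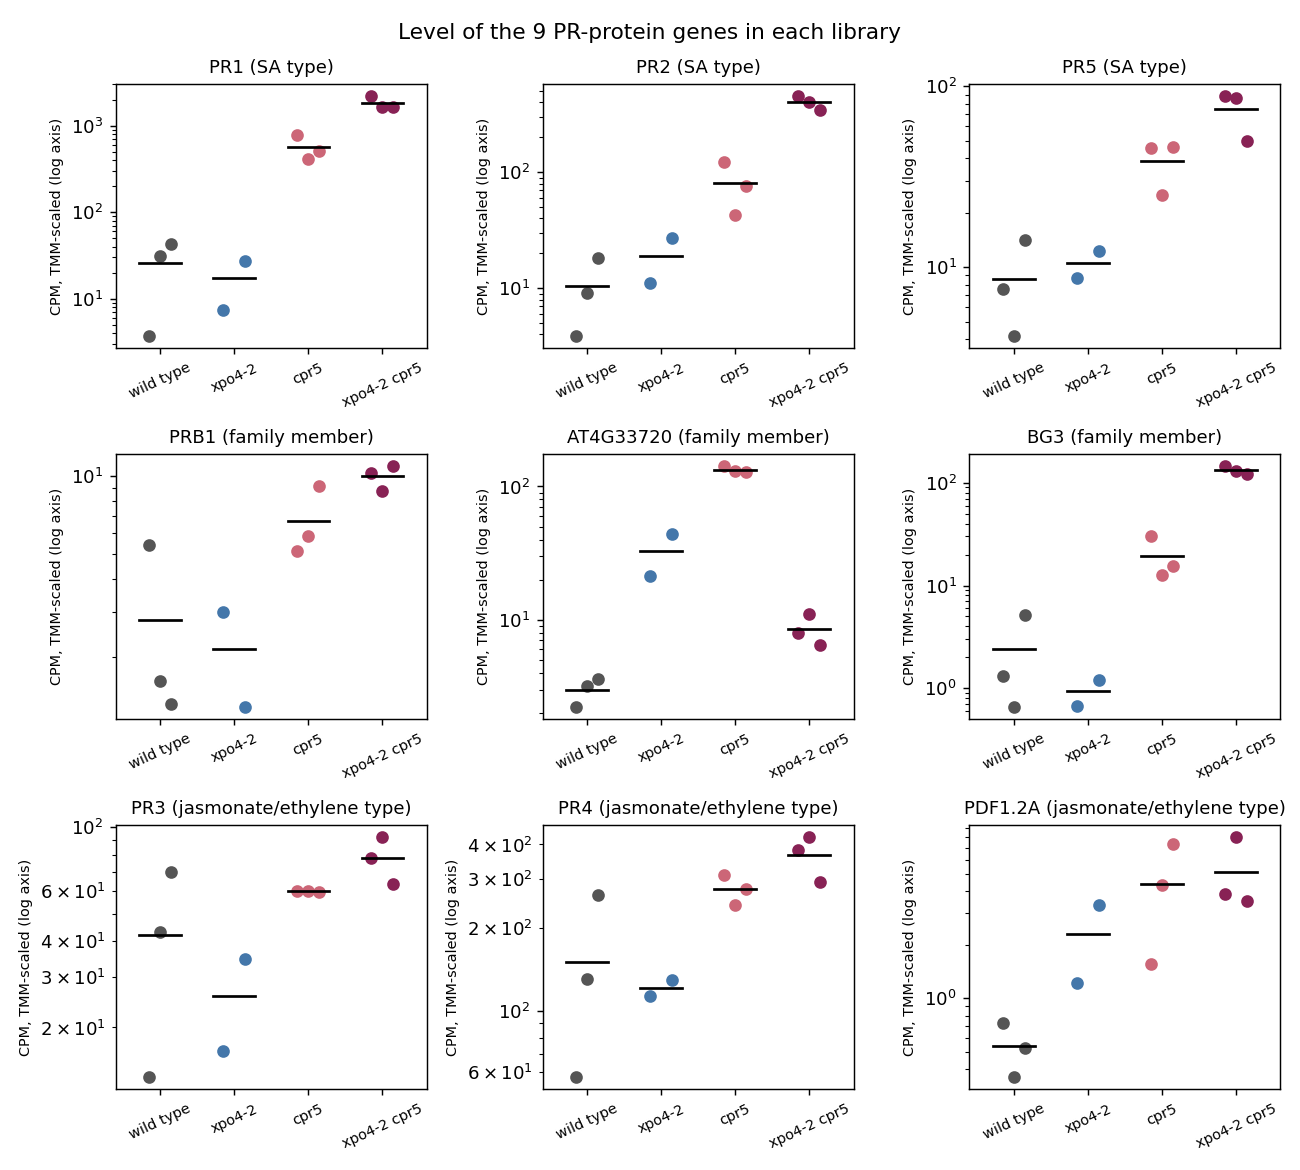
TMM-scaled CPM (log axis) of each of the 9 genes in the 11 libraries, by genotype; points are libraries and bars are group means. PR1, PR2 and BG3 climb from wild type over cpr5 to the double mutant, whereas AT4G33720 is highest in cpr5 (128 to 142) and falls back to 6.49 to 11.1 in the double mutant.

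Levels of different genes were compared per length, in the deposited TPM, a share of all transcripts corrected for length. In wild type PR4 led with a mean of 165 TPM, a level above that of 95.7% of all genes, followed by PR1 at 40.3 and PR3 at 33.6, and the other 6 lay between 1.59 and 8.98. In xpo4-2 PR4 led at 132 TPM and AT4G33720 was next at 48.7. In cpr5 PR1 led at 890 TPM, before PR4 at 310 and AT4G33720 at 200. In the double mutant PR1 reached 3660 TPM, before PR4 at 525 and PR2 at 447, and AT4G33720 was the lowest of the 9 at 16.2. PR1 made up 5.32% to 19.6% of the summed TPM of the 9 genes in wild type, 51.3% to 61.1% in cpr5, and 68.7% to 75.2% across the double mutant.

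Set side by side, the summed TPM of PR1, PR2 and PR5 was 0.221, 0.280 and 0.338 times that of PR3, PR4 and PDF1.2A in wild type and 0.209 and 0.443 times in xpo4-2. It was 2.11, 2.36 and 3.52 times that sum in cpr5 and 5.14, 7.59 and 7.75 times in the double mutant. The ratio was below 1 in all 5 wild-type and xpo4-2 libraries and above 1 in all 6 cpr5 and double mutant libraries. The SA-type sum was 15.8 to 100 TPM in wild-type libraries, 715 to 1350 in cpr5 and 3620 to 5040 in double mutant libraries. The other sum was 71.6 to 357 TPM in wild type, 338 to 399 in cpr5 and 521 to 706 in double mutant libraries. In no double mutant library was it below the highest wild-type library. These TPM were not TMM-scaled, and the TMM factors were 0.9383 to 0.9783 in cpr5 and 1.134 to 1.178 in double mutant libraries. In scaled CPM PR4, the largest part of this sum, overlapped between cpr5 (242 to 311) and the double mutant (292 to 427). On a log scale, which depends less on the genes of highest level, the mean log2(CPM + 1) was taken over the genes of each type. The SA type minus the other type was -0.70 ± 0.293 in wild-type libraries, -0.52 ± 0.303 in xpo4-2, 1.43 ± 0.68 in cpr5 and 2.78 ± 0.328 with both mutations. The added 1 damps changes of the low PDF1.2A, and with 0.1 in its place the wild-type value was -0.40. The spread of wild type and xpo4-2 overlapped, and the cpr5 range of 0.86 to 2.18 lay below the double mutant range of 2.44 to 3.10. This difference is a description and carries no test.

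**Figure D2:**
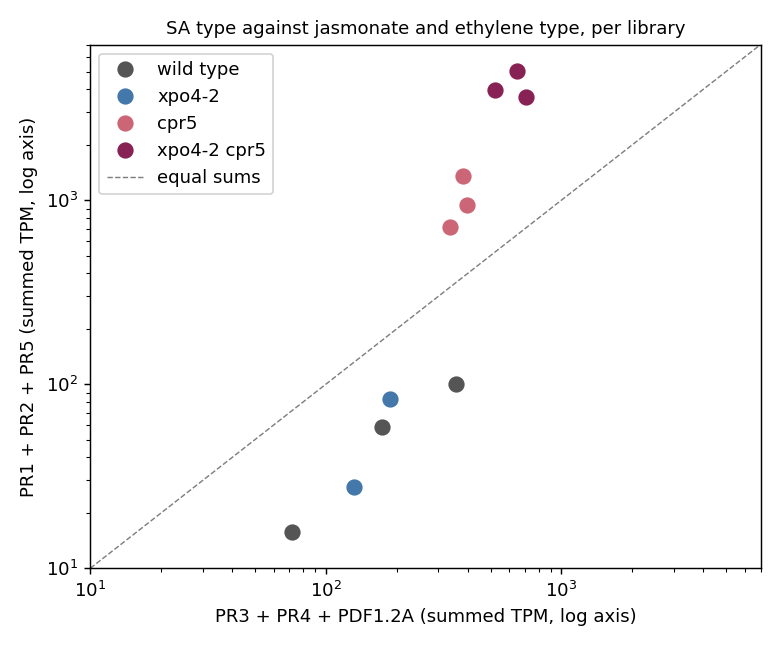
Summed TPM of PR1, PR2 and PR5 (vertical, log axis) against summed TPM of PR3, PR4 and PDF1.2A (horizontal, log axis) in each of the 11 libraries, coloured by genotype, with a dashed line where both sums are equal. Wild type and xpo4-2 libraries lie below the line at ratios of 0.209 to 0.443, cpr5 libraries above it at 2.11 to 3.52 and double mutant libraries farther above at 5.14 to 7.75.

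Differences were tested with edgeR's quasi-likelihood test across all 21580 genes, with the threshold set at 0.05 for the p adjusted by the Benjamini-Hochberg method. The first comparison asks what loss of XPO4 alone does. Against wild type, 1 of the 9 genes rose in xpo4-2, where 0.755% of all genes rose and 1.96% fell. This was AT4G33720, at 10.9-fold (log2 fold change 3.45, SE 0.322, adjusted p = 0.0011). PDF1.2A was 4.22-fold higher without passing (log2 2.08, SE 0.701, adjusted p = 0.142), although its groups did not overlap. The other 7 genes had log2 fold changes of -1.36 (BG3) to 0.87 (PR2), with adjusted p of 0.381 to 0.801. The AT4G33720 call was lost when only the 5 libraries of these groups were fitted (adjusted p = 0.0906, log2 3.44).

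The second comparison asks which PR genes the cpr5 mutation raises. Against wild type 6 of the 9 genes rose in cpr5 and 0 fell, against 4.3% of all genes that rose and 2.34% that fell. The median log2 fold change of the 9 was 2.95, and that of all genes was -0.009. AT4G33720 rose 44.2-fold (log2 5.47, SE 0.328, adjusted p = 3.49e-05) and PR1 rose 22.0-fold (log2 4.46, SE 0.766, adjusted p = 0.00877). BG3, PR2 and PR5 rose 7.97-fold, 7.70-fold and 4.46-fold (adjusted p = 0.0138, 0.0129 and 0.0142). All 3 SA-type genes therefore passed. Of the jasmonate and ethylene type, PDF1.2A rose 8.07-fold (log2 3.01, SE 0.665, adjusted p = 0.0244), while PR4 was at 1.84-fold (adjusted p = 0.238) and PR3 at 1.42-fold (adjusted p = 0.575). PRB1 was at 2.40-fold (adjusted p = 0.187). Without cpr5 replicate 1 the count was 3 of 9, with PR2, BG3 and PR5 at adjusted p of 0.0542, 0.0590 and 0.0592. PR2 also missed without wild-type replicate 2 (0.0537), PR5 without cpr5 replicate 3 (0.0548), and PDF1.2A without wild-type replicate 2, cpr5 replicate 2 or cpr5 replicate 3 (0.0849, 0.0657 and 0.0936). BG3 also missed when only the libraries of these groups were fitted (0.0613). PRB1 passed without wild-type replicate 1 (2.18 on the log2 scale, adjusted p = 0.0193) and PR4 without wild-type replicate 3 (1.55, adjusted p = 0.0153).

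The third comparison asks what loss of XPO4 adds to cpr5. Between the double mutant and cpr5, 2 of the 9 genes rose and 1 fell, where 8.82% of all genes rose and 12.9% fell. The glucanases were the genes that rose, BG3 by 6.78-fold (log2 2.76, SE 0.525, adjusted p = 0.00467) and PR2 by 4.98-fold (log2 2.32, SE 0.529, adjusted p = 0.0115). AT4G33720 fell 15.6-fold (log2 -3.97, SE 0.298, adjusted p = 6.02e-05). PR1 was 3.24-fold higher and PR5 1.94-fold higher, and neither passed (log2 1.70 and 0.95, SE 0.677 and 0.394, adjusted p = 0.101 and 0.112), although in both genes the groups did not overlap. PR3, PR4, PRB1 and PDF1.2A had log2 fold changes of 0.23 to 0.58 and adjusted p of 0.462 to 0.823. When only the 6 libraries of these groups were fitted, 5 members passed, PR1 (adjusted p = 0.0021) and PR5 (0.0353) among them. PR1 also passed without wild-type replicate 1 (adjusted p = 0.0136), and PR5 without wild-type replicate 3 (0.0464), with TPM in limma (log2 1.29, adjusted p = 0.0363) and with no scaling beyond library totals (0.0495). With that last choice the median of all genes moved from 0.014 to 0.273, and PR5 relative to it stood at 0.94, as with TMM scaling. Green shoot markers fell by a median of 2.05 on the log2 scale in the same comparison.

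Against wild type, 8 of the 9 genes rose in the double mutant, where 18.1% of all genes rose and 19.1% fell. PR1 rose 71.1-fold, BG3 54.0-fold, PR2 38.4-fold and PR5 8.64-fold, with adjusted p of 8.64e-05 to 0.000337. AT4G33720 rose 2.83-fold (adjusted p = 0.00292), far less than the 44.2-fold of cpr5. PDF1.2A rose 9.46-fold (adjusted p = 0.0034), PRB1 3.59-fold (0.0190) and PR4 2.45-fold (0.0304), and PR3 was at 1.85-fold without passing (0.156). The calls of PRB1 and PR4 were lost without wild-type replicate 2 (0.0675 and 0.0927), that of PR4 also without double mutant replicate 1 or 2 (0.0694 and 0.0794) and when only these groups were fitted (0.0894), and PR3 passed without wild-type replicate 3 (0.0265).

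Against xpo4-2, 7 of the 9 genes rose in the double mutant and 1 fell, where 13.2% of all genes rose and 15.5% fell. BG3 rose 139-fold, PR1 105-fold, PR2 21.0-fold and PR5 7.14-fold (adjusted p = 0.000189, 0.000842, 0.00104 and 0.0019). AT4G33720, which rose in both single mutants against wild type, fell 3.85-fold (log2 -1.95, SE 0.299, adjusted p = 0.000856). PRB1, PR4 and PR3 rose 4.68-fold, 3.05-fold and 3.04-fold (adjusted p = 0.0222, 0.0291 and 0.0478), and PDF1.2A was at 2.24-fold without passing (0.238). Without xpo4-2 replicate 2 the count was 5 of 9, with PRB1, PR3 and PR4 at adjusted p of 0.140, 0.0533 and 0.1. PR3 passed without wild-type replicate 1 or 3 and missed without any of the other 9 libraries (0.0533 to 0.290), and PR4 also missed without xpo4-2 replicate 1 (0.165) and without double mutant replicate 1 or 2 (0.0609 and 0.0662).

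The interaction asks whether xpo4-2 acts differently in cpr5 than in wild type. It was positive past the threshold for 1 of the 9 genes and negative for 1, against 3.2% and 5.51% of all genes. For AT4G33720 it was -7.41 on the log2 scale (SE 0.437, adjusted p = 5.34e-05), since xpo4-2 raised the gene in wild type and lowered it in cpr5. For BG3 it was 4.12 (SE 0.926, adjusted p = 0.0224), a value that rests on wild-type and xpo4-2 levels near 1 to 5 CPM. PR1, PR2 and PR3 had values of 2.25, 1.45 and 1.1 and PDF1.2A one of -1.85, and none of them passed (adjusted p = 0.217, 0.301, 0.376 and 0.251). The BG3 call was lost without xpo4-2 replicate 1 (0.110), xpo4-2 replicate 2 (0.0632), cpr5 replicate 2 (0.0558) or cpr5 replicate 3 (0.0559). Without wild-type replicate 1, PR1 (2.76, adjusted p = 0.0226) and PR3 (1.52, adjusted p = 0.0417) passed as well, which made 4 members.

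**Figure D3:**
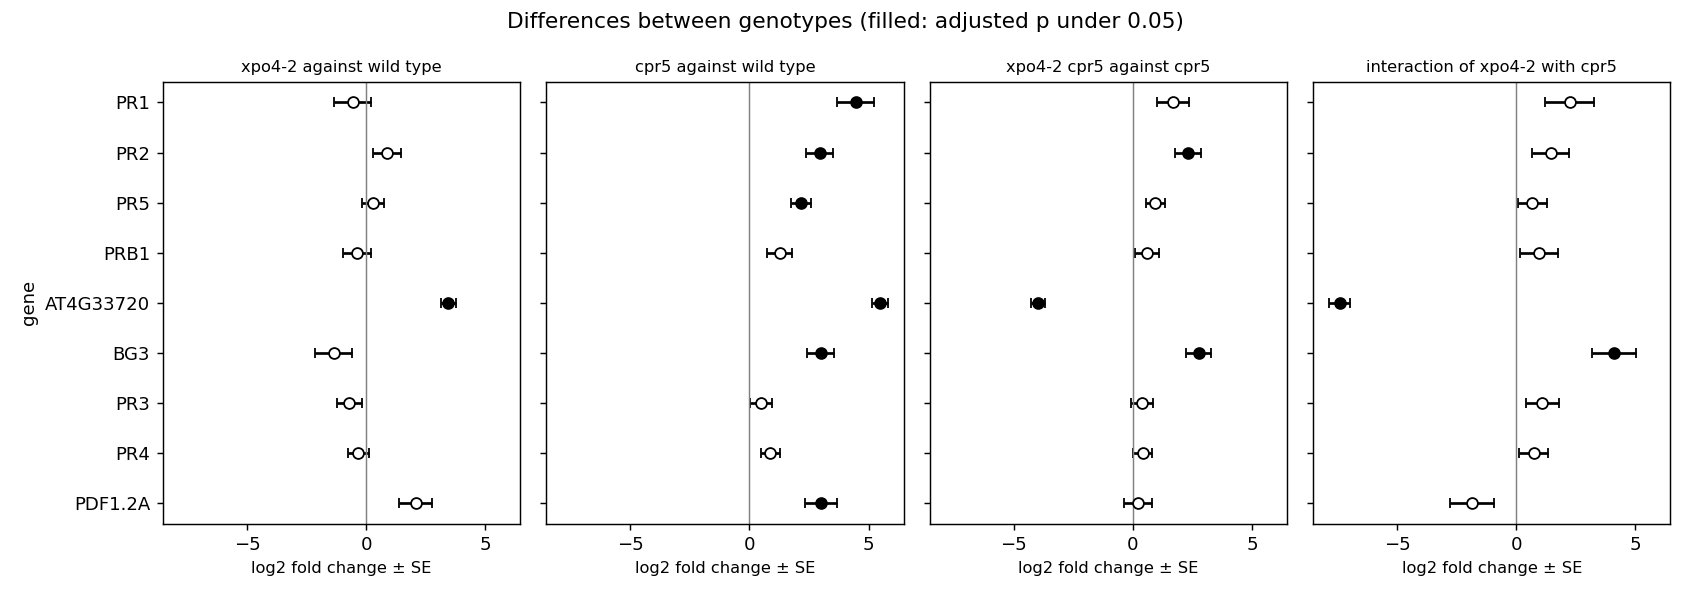
Log2 fold change ± SE (horizontal, same scale in each panel) of the 9 genes in 3 comparisons and in the interaction, from edgeR's quasi-likelihood fit of 11 libraries; filled points passed at an adjusted p under 0.05. In cpr5 6 points are filled, all to the right of 0, and AT4G33720 changes side between the panels, from 5.47 in cpr5 against wild type to -3.97 in the double mutant against cpr5.

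PDF1.2A has near-identical copies, which limits what its counts say about the single gene. The first 120 coding bases of the copies are shown, in capitals where a copy differs from PDF1.2A.
PDF1.2A: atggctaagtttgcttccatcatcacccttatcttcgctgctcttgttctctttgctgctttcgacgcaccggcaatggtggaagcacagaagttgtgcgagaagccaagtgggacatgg
PDF1.2c: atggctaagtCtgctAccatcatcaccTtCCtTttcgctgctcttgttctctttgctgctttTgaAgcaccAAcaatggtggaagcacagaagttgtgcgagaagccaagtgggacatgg
PDF1.2b: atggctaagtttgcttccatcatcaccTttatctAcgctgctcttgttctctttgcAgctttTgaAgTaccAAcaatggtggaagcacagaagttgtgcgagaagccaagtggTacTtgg
PDF1.3: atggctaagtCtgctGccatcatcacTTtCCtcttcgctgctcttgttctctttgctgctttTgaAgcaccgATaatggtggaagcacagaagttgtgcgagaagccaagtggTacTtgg
Over 243 coding bases PDF1.2A was 93.8% identical to PDF1.2b, 93.4% to PDF1.2c, its neighbour on chromosome 5, and 91.4% to PDF1.3, with identical runs of 39 to 52 bases. How reads that match several genes were treated is not given in the sources at hand, so values within the group are uncertain as to the copy. PDF1.3 stood at 0.120, 0.241 and 0.684 CPM in wild-type libraries, 0.612 and 2.89 in xpo4-2 libraries, 1.65, 2.07 and 3.56 in those of cpr5, and 12.9, 17.6 and 42.0 in those of the double mutant. It rose 9.94-fold over cpr5 in the double mutant (log2 3.31, adjusted p = 0.00613), where PDF1.2A was at 1.17-fold. The difference between both genes was not tested. The summed CPM of the 4 copies was 0.601 to 3.47 in wild-type libraries, 3.67 and 10.1 in xpo4-2 libraries, 5.28 to 13.8 in those of cpr5 and 18.1 to 52.4 in those of the double mutant. The double mutant thus lay above cpr5 for the sum and not for PDF1.2A alone, and PDF1.3 held 12.9 to 42.0 CPM of that sum. PDF1.2b and PDF1.2c did not pass between the double mutant and cpr5 (log2 -0.82 and 0.32, adjusted p = 0.747 and 0.835).

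The SA branch upstream of PR1, PR2 and PR5 was followed in a list of 25 genes. In cpr5 against wild type 11 of the 25 rose and 0 fell, where 4.3% of all genes rose and 2.34% fell, with a median log2 fold change of 0.98 against -0.009 for all genes. WRKY51, WRKY38 and NIMIN1 rose 11-fold, 10.2-fold and 9.09-fold (adjusted p = 0.00624, 0.0144 and 0.00752). WRKY38 and WRKY51 are transcription factors and NIMIN1 is a partner of NPR1. Which way each of them acts on the PR genes was not tested. None of the factors TGA1 to TGA7 passed in cpr5 against wild type (adjusted p = 0.0693 to 0.967). NPR1 itself rose from 61.1 ± 2.65 to 106 ± 9.48 CPM (log2 0.80, adjusted p = 0.00316), and the SA receptors NPR3 and NPR4 rose with it (log2 1.00 and 1.39, adjusted p = 0.0037 and 0.00208). In the double mutant against cpr5, 13 of the 25 rose and 1, NIMIN3, fell, where 8.82% of all genes rose and 12.9% fell, with a median of 0.84. ICS1, which makes the SA precursor isochorismate, was at 23.1 ± 10.3 CPM in wild type, 47.9 ± 8.48 in cpr5 and 377 ± 59.3 in the double mutant, and rose 7.86-fold over cpr5 (adjusted p = 0.000185). In cpr5 against wild type ICS1 did not pass (adjusted p = 0.0554). PBS3, the enzyme after it, rose 7.91-fold in cpr5 over wild type and 6.98-fold more in the double mutant (adjusted p = 0.00155 and 0.000463). WRKY50 rose 5.80-fold over cpr5 (adjusted p = 0.000507) and PAD4, an immune regulator, rose 2.91-fold (adjusted p = 0.00277). TGA1, TGA5 and TGA6 rose 2.21-fold, 1.76-fold and 1.62-fold over cpr5 (adjusted p = 0.00779, 0.0121 and 0.0202). TGA2, TGA3, TGA4 and TGA7 did not pass there (adjusted p = 0.0518 to 0.738). The double mutant held NPR1 at 114 ± 10.1 CPM, a log2 fold change over cpr5 of 0.10 (adjusted p = 0.567).

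The ethylene and jasmonate branch upstream of PR3, PR4 and PDF1.2A was followed in a list of 28 genes, of which 27 were measured. In cpr5 against wild type 1 of the 27 rose, the ERF-type factor ERF98 (5.69-fold, adjusted p = 0.0237), 0 fell, and the median was -0.01. This count lay near the 4.3% of all genes that rose. In the double mutant against cpr5, 10 of the 27 rose and 2 fell, where 8.82% of all genes rose and 12.9% fell, with a median of 0.38. The ethylene receptor ETR2 rose 3.84-fold (adjusted p = 0.00106), and EBF2, an F-box protein that removes EIN3, rose 3.68-fold, from 229 ± 34.4 to 842 ± 14.7 CPM (adjusted p = 0.000242). ERF98 fell from 16.0 ± 3.71 to 0.512 ± 0.528 CPM (log2 -4.98, adjusted p = 0.000534) and ERF6 fell 5.28-fold (adjusted p = 0.000377). None of the activators ORA59, ERF1 and EIN3 passed between cpr5 and the double mutant. ORA59 was at 11 ± 2.81 and 12.5 ± 4.62 CPM (log2 0.18, adjusted p = 0.779), ERF1 at 2.69 ± 0.328 and 3.51 ± 0.608 (log2 0.38, adjusted p = 0.454) and EIN3 at 233 ± 9.36 and 251 ± 11.2 (log2 0.11, adjusted p = 0.576). Against wild type, ERF1 rose in the double mutant (log2 1.18, adjusted p = 0.0182), where it had been at 1.54 ± 0.333 CPM.

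**Figure D4:**
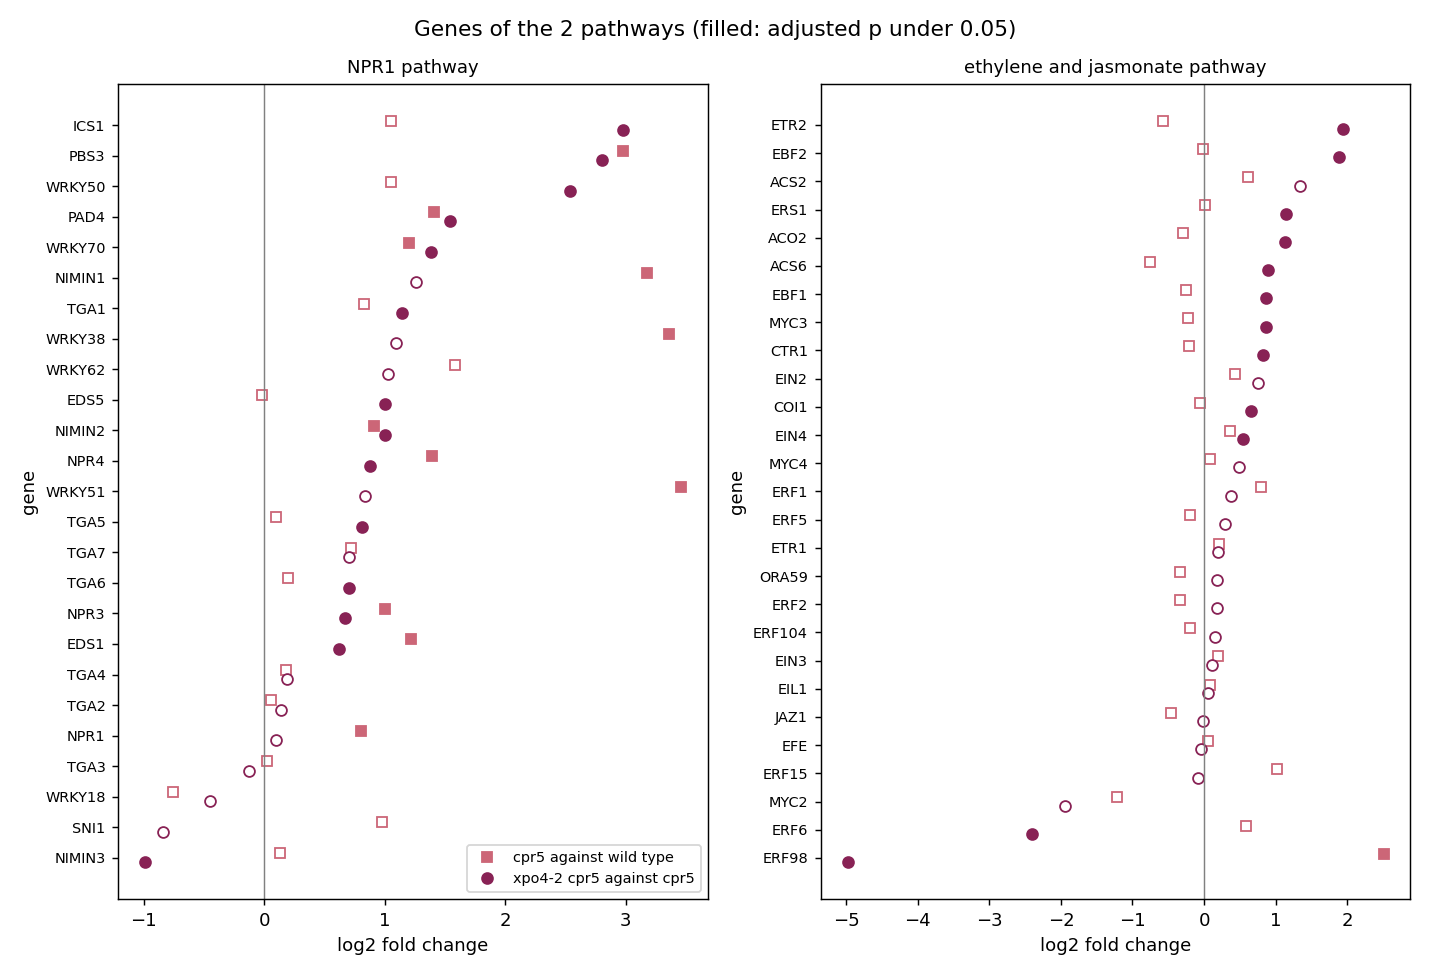
Log2 fold change (horizontal) of the genes of the NPR1 pathway (left) and of the ethylene and jasmonate pathway (right), for cpr5 against wild type (squares) and the double mutant against cpr5 (circles), filled where adjusted p was under 0.05 and ordered by the second comparison. On the left 11 squares and 14 circles are filled, and on the right 1 square and 12 circles, with ERF98 at 2.51 and -4.98.

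Other members of the same protein families moved in both directions. The counts that follow stand beside 4.3% of all genes that rose and 2.34% that fell in cpr5 against wild type, and 8.82% that rose and 12.9% that fell in the double mutant against cpr5. With so few genes in each family, counts of 1 or 2 lie near these shares and are no result about the family. Of 10 further PR1-family genes tested, 0 rose and 1 fell in cpr5 (AT4G25780, 10.1-fold, adjusted p = 0.0163), and 1 rose and 2 fell in the double mutant against cpr5 (AT5G57625 5.21-fold up, AT2G19970 5.41-fold and AT5G66590 2.80-fold down, adjusted p = 0.0298, 0.00975 and 0.0184). AT4G33730, which lies 1424 bases from AT4G33720 on the same strand, was at 0.489 ± 0.27 CPM in wild-type libraries, 2.32 ± 2.25 in xpo4-2 libraries, 0.792 ± 0.475 in those of cpr5 and 2.81 ± 1.54 in those of the double mutant, and did not share the cpr5 maximum of its neighbour. Of the other glucanases related to PR2, AT4G16260 on chromosome 4 rose 4.47-fold in cpr5 (adjusted p = 0.0107). BG1, whose gap to PR2 is 1269 bases, was at 0 to 0.263 CPM in wild-type libraries, 0 in both of xpo4-2, 0 to 0.311 in those of cpr5 and 0.528 to 1.18 in those of the double mutant, which lay above all others. It rose in the double mutant against xpo4-2 (adjusted p = 0.0351), by at least 10.2-fold against a floor of 3 counts over the group, and did not pass against cpr5 or wild type (adjusted p = 0.244 and 0.11). Of 14 other chitinases, 3 rose and 0 fell in cpr5, and 4 rose and 1 fell in the double mutant against cpr5, with medians of 0.60 and 0.64. Those that rose in cpr5 were AT1G02360 (3.59-fold), AT2G43610 (2.78-fold) and AT3G47540 (1.89-fold), with adjusted p of 0.0097, 0.0246 and 0.00426. In the double mutant AT2G43620 (7.01-fold), AT3G47540 (3.66-fold) and AT2G43590 (3.11-fold) rose over cpr5, with adjusted p of 0.0152, 5.32e-05 and 0.00825. The chitinase CHI (AT2G43570) rose from 58.1 ± 23.3 to 287 ± 47.3 CPM there (4.95-fold, adjusted p = 0.0408). Of 15 thaumatin-like genes related to PR5, 1 rose and 1 fell in cpr5, and 0 rose and 5 fell in the double mutant against cpr5, with a median of -0.76. OSM34, an osmotin-like protein, rose 4.02-fold in cpr5 (adjusted p = 0.0199). AT4G36010 fell in both comparisons (2.23-fold and 2.52-fold, adjusted p = 0.0112 and 0.00187), and AT1G20030 and ATLP-1 fell 3.30-fold and 2.52-fold in the second (adjusted p = 0.00223 and 0.00388). AT1G19320 had 117 counts over the cpr5 libraries and 0 in the double mutant, at least 47.4-fold lower against a floor of 3 counts over the group (adjusted p = 0.0172). Its wild-type libraries held 42, 52 and 0 counts, so a 0 was also seen in wild type. Of 12 other defensins and thionins, 1 rose in cpr5, PDF2.1 (5.05-fold, adjusted p = 0.0165), and 1 rose (PDF1.3) and 1 fell (PDF2.3, 1.48-fold, adjusted p = 0.0179) in the double mutant against cpr5.

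The genes whose profile was most like a PR gene were found by the root mean square (RMS) difference of centred log2(CPM + 1) over the 11 libraries. For PR1 the nearest was RLP23, the receptor-like protein that detects NLP peptides, at 0.701, followed by PUB54 (0.946) and BAP2 (1.00). For PR2 these were CRK6, a receptor-like kinase (0.401), AT5G10760 (0.482) and PBS3 (0.521), and for PR5 they were AT4G18253, AT1G58225 and AT5G18470 (0.352 to 0.380). For PR3 the nearest was PHT3;2, a mitochondrial phosphate carrier (0.204), before Hsp70-2 (0.227) and AT4G24340 (0.250), and for PR4 it was PBP1 (0.190), before AGC2-1 (0.200) and PCR2 (0.233). For PDF1.2A the nearest were MC5, a metacaspase (0.249), PCK2 (0.377) and AT4G16900 (0.420). Among the 9 genes themselves PR3 and PR4 were the closest pair (0.282) and PR2 and BG3 the next (0.711). These values are descriptions over libraries of 4 genotypes, and flat profiles give small differences.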

How the data were processed

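Whole-seedling mRNA was sequenced in 11 strand-specific libraries, per the labels. The deposited table holds whole-number counts for 22160 genes, and a second deposited table holds TPM for 71164 transcripts, summed here by gene. The submitters' processing notes name HISAT2 2.0.4, HTSeq 0.6.1p1 and TAIR10, with no role, and the TPM table's name credits kallisto. The counts follow the TPM closely, so the 2 tables are no independent measurements and the counts may be rounded estimates, and the strand setting and multiple matches are not given in the sources used here. Counts were filtered (filterByExpr), scaled by TMM and tested with edgeR 4.0.16 in R 4.3.3 (glmQLFit, glmQLFTest, 1 fit of 11 libraries, Benjamini-Hochberg over 21580 genes). The SE is the fold change over the root of its F statistic. DESeq2 1.42.0, limma 3.58.1 on log2(TPM + 0.5), other filters and scalings, a replicate block and leaving out each library were alternatives, 21 settings in all. The test scripts were tested on simulated data. Promoters and coding sequences came from the TAIR10.1 assembly by locus tag. Coding sequences were aligned globally and upstream windows locally (match 1, mismatch -1, gap opening -3, extension -1). All members are named, as are the regulators NPR1, ERF1, ORA59 and EIN3 and 3 nearest profiles per main gene. From each list, genes past the threshold in cpr5 or in the double mutant against cpr5 are named, at most 4 per list and comparison. NPR3, NPR4, NIMIN3, the TGA factors, AT4G33730 and BG1 were named after their values were seen. Members and lists were chosen with earlier results of these data known.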

Additional observations from a re-analysis of the deposited data

Results flagged for a closer look

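The effect of xpo4-2 differed between the cpr5 and wild-type backgrounds for 2 of the 9 genes, by edgeR's quasi-likelihood test of the difference itself. Of all genes, 8.71% passed that test. AT4G33720 was 10.9-fold higher in xpo4-2 than in wild type and 15.6-fold lower in the double mutant than in cpr5, a difference of -7.41 on the log2 scale (SE 0.437, adjusted p = 5.34e-05). Both xpo4-2 libraries lay above the 3 wild-type libraries, and the 3 double mutant libraries lay below the 3 cpr5 libraries. BG3 was at a log2 fold change of -1.36 in xpo4-2 against wild type, which did not pass, and 2.76 in the double mutant against cpr5, a difference of 4.12 (SE 0.926, adjusted p = 0.0224). The wild-type and xpo4-2 libraries of BG3 held 11 to 99 counts. The BG3 call was lost with a replicate block (adjusted p = 0.0538) and without cpr5 replicate 2 or 3 (0.0558 and 0.0559).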

How the results depend on the processing

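Of 54 results (9 genes in 6 comparisons), 28 passed, and 17 of these passed under every alternative run. None of the 28 changed sign. Of the 26 that did not pass, 7 passed under some alternative. The count of members past the threshold moved from 1 to 0 for xpo4-2 against wild type and from 3 to 5 for the double mutant against cpr5 when only the groups compared were fitted, and fewer libraries then estimate the spread. Leaving out 1 library gave counts of 3 to 7 in cpr5 against wild type, 6 to 9 and 5 to 8 in the double mutant against wild type and xpo4-2, and 1 to 4 for the interaction. Uncalled values changed sign without 1 library in xpo4-2 against wild type, where the log2 ranges were -1.81 to 0.10 for PR1, -1.11 to 0.54 for PRB1, -0.06 to 0.84 for PR5 and -0.70 to 0.35 for PR4. In the double mutant against cpr5, PDF1.2A reached -0.25 without double mutant replicate 2 and -0.18 without cpr5 replicate 1 and 0.81 at the other end of that range. The wild-type difference of types moved to -0.40 with a pseudocount of 0.1. Of 15 same-number pairs, 1 had deviations correlated above 0.1, wild-type replicate 1 with xpo4-2 replicate 1 (0.214). Pairs of unlike number were not compared, so this check cannot exclude that replicate numbers pair samples. With the replicate block the interaction called 1 member in place of 2 (BG3 at adjusted p = 0.0538), and the double mutant against xpo4-2 called 6 in place of 8, with PR3 and PR4 at 0.0536 and 0.0570. The cause of these changes was not tested. Depth limits PDF1.2A, with 6 to 12 counts per wild-type library.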

Other observations

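PR2 had 2 transcript models in the deposited TPM table. The second model, AT3G57260.2, took 1.16% to 3.04% of the gene's TPM in the double mutant, 2.44% to 6.28% in cpr5, 3.85% and 14.8% in xpo4-2 and 0% to 6.30% in wild type, where the gene itself was at 3.16 to 16.3 TPM. The 6 markers of senescing leaf summed to 75.7 to 142 CPM in wild-type libraries, 226 and 236 in xpo4-2 libraries, 332 to 408 in those of cpr5 and 403 to 847 in those of the double mutant. Of these, 3 rose in cpr5 against wild type, where 4.3% of all genes rose, and 2 in the double mutant against cpr5, where 8.82% did. In the latter comparison SAG12 and SAG13 went the other way without passing, while the others had positive log2 fold changes. SAG12 had 34 counts over the cpr5 libraries and 0 in the double mutant (adjusted p = 0.0795). SAG13 was at -0.18 on the log2 scale (adjusted p = 0.905).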
